A study of Mus musculus with 6 samples.

Results

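Of the 516 genes in a table of transcripts picked for a difference between Mtor CKO and wild-type mouse eggs, 8 protein-coding genes near Mtor on chromosome 4 are described here: Padi4, Necap2, Kazn, Pdpn, Per3, Tprgl, Arhgef16 and Sdf4. They were selected by 2 properties: a row in that table, whose genes were all chosen by that contrast, and a position within 10 Mb of Mtor outside the PRAME-like genes and zinc finger gene copies. All 8 were found in the table. RNA was sequenced from ovulated metaphase II oocytes, the mature eggs that await fertilization. In the Mtor CKO group (n = 3 libraries) Mtor had been deleted by Zp3-Cre, a recombinase under a promoter that is active in growing oocytes, so that the deletion is restricted to the germ cell. It was set against wild-type oocytes (WT, n = 3 libraries). All mice were C57BL/6, were primed with PMSG (5 IU) when 22 days old and given hCG (5 IU) after 48 h, with eggs taken 14 h after the hCG. Each library pooled 5 oocytes, so less RNA in every egg and the loss of a transcript from some of the eggs cannot be told apart. The labels do not say whether libraries came from separate mice, nor in which strain the Mtor allele was made.

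MTOR is a kinase that promotes protein synthesis and growth and restrains autophagy. A fully grown oocyte stores maternal transcripts and is nearly silent in transcription, so the RNA of the mature egg reflects what was made during growth and what has since been degraded. The 8 genes share no pathway. Padi4 encodes an enzyme that converts arginine to citrulline in histones, and Per3 a transcriptional repressor of the circadian clock. Necap2 and Sdf4 (also called Cab45) act in membrane traffic, NECAP2 at clathrin coats and the calcium-binding SDF4 in the Golgi lumen. Pdpn (podoplanin) encodes a protein of the cell surface, Kazn (kazrin) one of cell junctions and Arhgef16 a guanine nucleotide exchange factor. Tprgl, also known as Mover, is a protein of synaptic vesicles.

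Values are given in FPKM, fragments scaled to transcript length and to the mapped fragments of the library, as the authors deposited them, and the read depth behind them is unknown. The median FPKM over the 516 rows ranged from 3.77 to 5.40 in the Mtor CKO libraries and from 7.37 to 9.18 in the WT libraries. Because the rows had been picked for the contrast between the genotypes, differences are described without a test. Mtor itself was not among the rows and was not analysed here, so the labels have no check from the targeted gene. Of 15 oocyte markers, Zp2 and Nlrp5 were in the table. Zp2 averaged 79.0 ± 5.57 FPKM in Mtor CKO eggs and 164 ± 17.9 FPKM in WT eggs, and Nlrp5 averaged 162 ± 12.02 FPKM in Mtor CKO eggs and 551 ± 225 FPKM in WT eggs (SD, n = 3 each).

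In Mtor CKO eggs 6 of the 8 genes were lower and 2, Padi4 and Pdpn, were higher. Of all 516 rows, 76.4% were lower and 23.6% higher. The 3 Mtor CKO values did not overlap the 3 WT values for 7 of the 8 genes, Pdpn being the exception. The same held for 71.9% of all rows, and this share was raised by the way the rows were picked. By direction, the separated genes were 6 lower and 1 higher, against 57.4% and 14.5% of the rows. The median difference in log2(FPKM + 1), Mtor CKO minus WT, was -1.06 over the 8 genes and -1.01 over the 516 rows. All 8 reached an FPKM of 1 or more in 3 or more libraries, as did 91.3% of the rows. The authors' deposited table had log2 folds from 3.34 for Padi4 to -2.15 for Arhgef16. Its bound was an absolute log2 fold of 1, and Sdf4, at -1.02, stood nearest to it. In the authors' deposited table Padi4, Pdpn and Tprgl, 3 of the 8 genes, had a q-value of at most 0.05, as did 49.2% of all rows, and those of the other 5 ran from 0.0550 for Necap2 and Arhgef16 to 0.121 for Kazn.

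**Figure D1:**
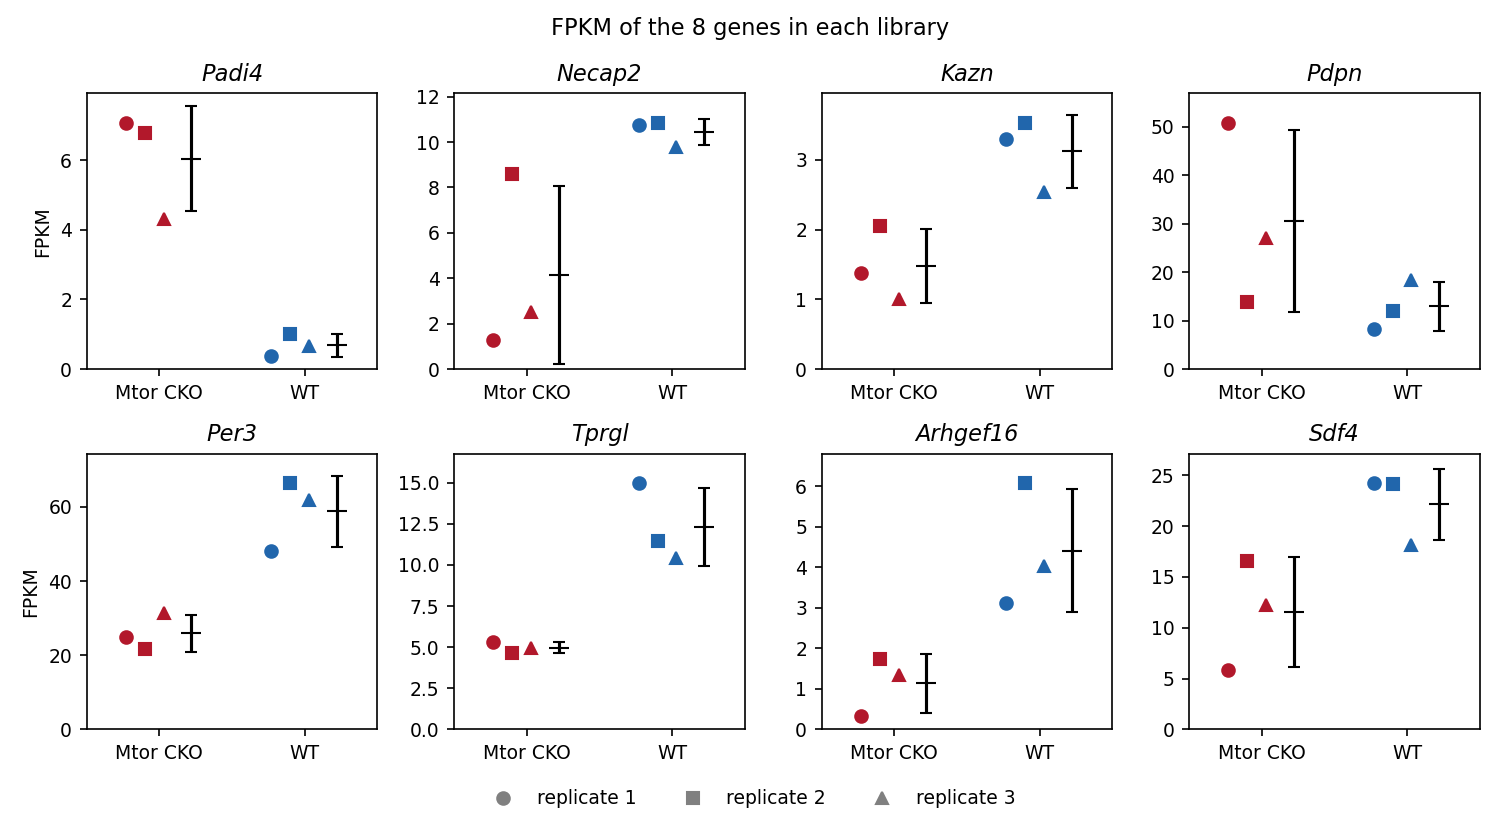
FPKM of the 8 genes in each library, Mtor CKO in red and WT in blue, with a marker shape for each replicate number; the black bar beside each group is the mean ± SD (n = 3). The groups are separate in 7 panels and overlap for Pdpn, where Mtor CKO replicate 2 (13.8 FPKM) lies below WT replicate 3 (18.4 FPKM).

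The largest difference was that of Padi4 (ENSMUSG00000025330, chromosome 4, 140745779 to 140774236, mm10, minus strand), the lowest of the 8 genes in WT eggs. Padi4 was at 7.06, 6.77 and 4.30 FPKM in Mtor CKO replicates 1, 2 and 3 and at 0.376, 1.02 and 0.651 FPKM in WT replicates 1, 2 and 3. The lowest Mtor CKO value was 4.21 times the highest WT value. Means were 6.04 ± 1.52 FPKM in Mtor CKO eggs and 0.682 ± 0.323 FPKM in WT eggs (SD, n = 3 each), an 8.86-fold ratio, and the difference in log2(FPKM + 1) was 2.06 (SE 0.25). Since WT values lay below 1 FPKM in 2 of 3 libraries, the added 1 compresses this difference, and the log2 ratio of the means was 3.15.

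Padi4 stands in a row of 5 peptidylarginine deiminase genes. In GENCODE, Padi6, the family member known for its role in the oocyte's cytoplasmic lattices, lies downstream of Padi4 on the same strand. Its interval is at lower coordinates, 3136 bases from the Padi4 row. Padi3 and Padi1, also on the minus strand, lie upstream, at higher coordinates, 11129 and 38747 bases from that row. No other gene overlaps the Padi4 row, and no transcript of another gene matched a Padi4 transcript over at least 200 bases at 90% identity or more. Of the 5 genes only Padi4 was in the table, and a gene missing from it has no value here. PADI4 is abundant in neutrophils, and 0 of 10 neutrophil markers were in the table, so their level is not known from it.

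Pdpn (ENSMUSG00000028583, chromosome 4, 143267374 to 143299564, minus strand) encodes a mucin-type membrane glycoprotein that marks lymphatic endothelium and binds ezrin and moesin. It was at 50.8, 13.8 and 27.1 FPKM in Mtor CKO replicates 1, 2 and 3 and at 8.35, 12.01 and 18.4 FPKM in WT replicates 1, 2 and 3. The groups overlapped, and the Mtor CKO libraries spanned a 3.67-fold range. Means were 30.6 ± 18.7 FPKM in Mtor CKO eggs and 12.9 ± 5.11 FPKM in WT eggs (SD, n = 3 each), with a difference in log2(FPKM + 1) of 1.06 (SE 0.60). That difference was 0.62 without Mtor CKO replicate 1. The epithelial keratin Krt7, the 1 of 8 oviduct markers in the table, was at 7.81, 4.23 and 10.1 FPKM in Mtor CKO eggs and at 3.59, 2.45 and 4.399 FPKM in WT. Its part in the Pdpn values was not tested. Of 7 markers of lymphatic endothelium and mesothelium, 0 were in the table.

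The promoter windows of these 2 higher genes are shown because no other of the 8 genes was higher, and because they differ in base composition. Each RefSeq window (build GRCm38.p6) runs from 250 bases before to 50 bases after the annotated start, 5′ to 3′ on the gene's strand. Capitals mark matches on either strand to 4 motifs: the E-box CACGTG, which clock and other bHLH factors bind, the TATA box TATAAA, the CCAAT box CCAAT and the GC box GGGCGG. The Padi4 window is chr4:140774154-140774453 and that of Pdpn is chr4:143299515-143299814, both on the minus strand.
Padi4: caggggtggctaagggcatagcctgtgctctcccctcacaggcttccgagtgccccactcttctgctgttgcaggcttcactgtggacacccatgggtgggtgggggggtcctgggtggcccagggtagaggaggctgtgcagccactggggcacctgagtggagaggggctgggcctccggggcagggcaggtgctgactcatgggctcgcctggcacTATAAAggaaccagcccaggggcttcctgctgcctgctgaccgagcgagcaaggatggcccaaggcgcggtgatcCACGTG
Pdpn: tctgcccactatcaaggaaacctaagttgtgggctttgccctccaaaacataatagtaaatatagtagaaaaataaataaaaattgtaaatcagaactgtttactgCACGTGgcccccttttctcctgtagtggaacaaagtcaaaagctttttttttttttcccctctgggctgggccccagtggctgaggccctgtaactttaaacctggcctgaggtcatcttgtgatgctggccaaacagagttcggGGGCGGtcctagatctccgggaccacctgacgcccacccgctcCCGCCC
The Padi4 window held a TATA box beginning 31 bases before the start and an E-box at its last bases. The Pdpn window held no TATAAA, an E-box beginning 144 bases before the start and 2 GC boxes. Over all 32851 RefSeq windows, 13.6% held a TATA box, 7.15% an E-box, 37.4% a CCAAT box and 35.7% a GC box. These matches are letters in a window, and no binding was measured.

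Among the 6 lower genes, Per3 and Tprgl differed by most relative to the spread of their libraries. The Per3 row (ENSMUSG00000028957) was at 24.8, 21.6 and 31.4 FPKM in Mtor CKO replicates 1, 2 and 3 and at 48.1, 66.3 and 61.9 FPKM in WT replicates 1, 2 and 3. Every Mtor CKO library was below every WT library, the closest pair differing 1.53-fold. Means were 25.9 ± 5.00 FPKM in Mtor CKO eggs and 58.8 ± 9.50 FPKM in WT eggs (SD, n = 3 each), so Mtor CKO stood at 44.1% of WT, and the difference in log2(FPKM + 1) was -1.15 (SE 0.21). Per3 was the highest of the 8 in WT eggs, and its row interval, at 2.36 Mb, was the nearest of theirs to Mtor. The other 21 genes of a circadian clock list, among them Per1, Per2, Clock and the cryptochromes, were not in the table.

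The interval of the Per3 row is far wider than the gene. It runs from 150914562 to 151861876 on chromosome 4, 947 kb, whereas GENCODE places Per3 at 151003652 to 151044665 on the minus strand, 41.0 kb. The row begins at the lowest coordinate of Tnfrsf9 and ends at the highest of Camta1, and Uts2, Vamp3 and Gm13090 also lie in it. Per3 lies within the bounds of Camta1 (150917322 to 151861876), which is on the same strand. Vamp3, a vesicle SNARE, lies just upstream of Per3 on the same strand, at higher coordinates. The 5 Ensembl transcripts that the row lists are all of Per3, beside 1 transcript assembled from the reads. No annotated exon of the 5 other protein-coding genes shares a base with a Per3 exon, and none of these genes had a row of its own. How far their reads entered the Per3 value was not tested.

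**Figure D2:**
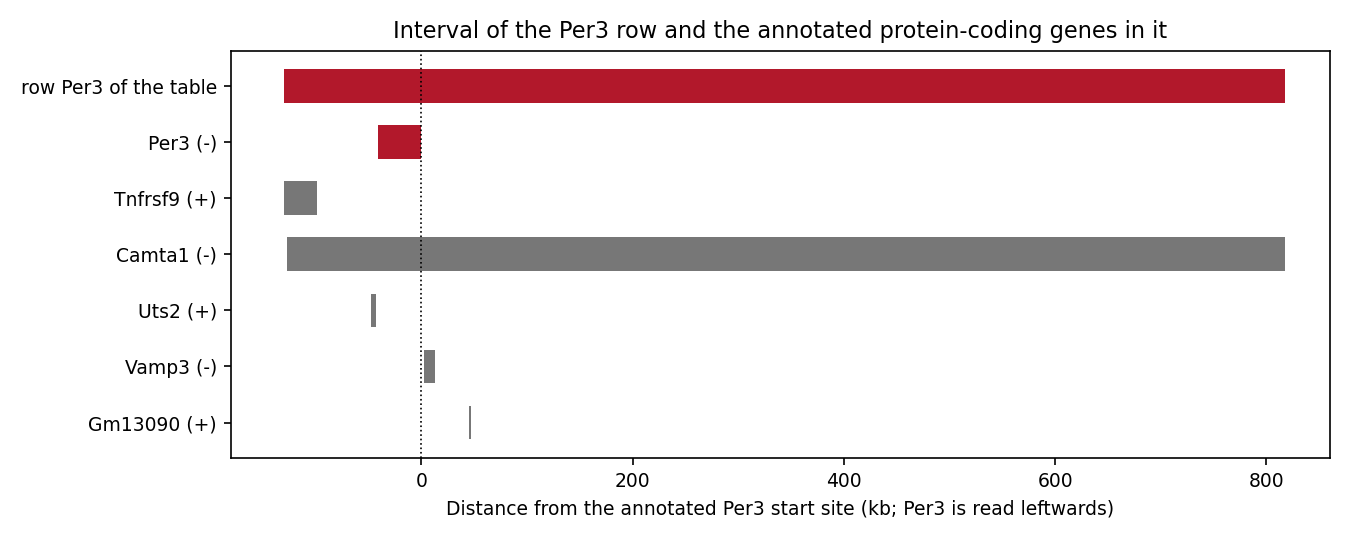
Interval of the Per3 row of the table (top bar), the annotated Per3 gene and the 5 other annotated protein-coding genes inside the interval, by distance in kb from the Per3 start site, with strand in brackets. The row spans 947 kb and Per3 itself 41.0 kb.

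Tprgl (ENSMUSG00000029030) was the most even of the 8 genes in Mtor CKO eggs. It was at 5.31, 4.64 and 4.95 FPKM in Mtor CKO replicates 1, 2 and 3, a coefficient of variation of 6.74%, and at 15.0, 11.5 and 10.4 FPKM in WT replicates 1, 2 and 3. The lowest WT value was 1.96 times the highest Mtor CKO value. Means were 4.97 ± 0.335 FPKM in Mtor CKO eggs and 12.3 ± 2.37 FPKM in WT eggs (SD, n = 3 each), and the difference in log2(FPKM + 1) was -1.14 (SE 0.15). The row interval (chromosome 4, 154142372 to 154167420) has the exact bounds of Wrap73, a gene on the plus strand, and Tprgl (154157485 to 154160666, minus strand) lies inside it. The exons of the 2 genes share 0 bases, and Wrap73 had no row of its own. The row interval holds 4335 exonic bases of Wrap73. How far reads of Wrap73 entered the Tprgl value was not tested, as for the neighbours of Per3. Transcripts of Tprgl also matched those of Gm18958 over up to 278 bases at 90% identity or more.

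The promoter windows of Per3 (chr4:151044616-151044915) and Tprgl (chr4:154160635-154160934), both minus strand, are shown beside each other because they were rich in the same 2 motifs, marked in capitals as before.
Per3: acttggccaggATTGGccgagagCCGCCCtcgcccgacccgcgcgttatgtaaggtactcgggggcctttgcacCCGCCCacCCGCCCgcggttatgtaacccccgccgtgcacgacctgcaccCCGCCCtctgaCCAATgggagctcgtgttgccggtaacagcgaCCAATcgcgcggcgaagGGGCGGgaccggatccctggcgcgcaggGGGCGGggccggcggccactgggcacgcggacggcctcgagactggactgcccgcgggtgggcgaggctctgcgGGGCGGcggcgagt
Tprgl: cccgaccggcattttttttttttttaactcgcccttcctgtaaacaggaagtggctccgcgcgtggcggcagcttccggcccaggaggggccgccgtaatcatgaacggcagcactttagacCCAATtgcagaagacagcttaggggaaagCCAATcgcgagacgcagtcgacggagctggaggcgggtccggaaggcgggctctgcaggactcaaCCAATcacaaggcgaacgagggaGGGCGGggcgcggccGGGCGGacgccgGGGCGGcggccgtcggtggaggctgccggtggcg
Per3 held 3 CCAAT and 7 GC boxes and Tprgl held 3 of each, with no TATAAA and no CACGTG in either window. The 6-letter E-box is thus not written in this window of the clock gene Per3. G and C made up 73.3% of the Per3 window and 65.3% of that of Tprgl, against 66.3% for Padi4, 48.7% for Pdpn and a median of 52.7% over all windows. CG pairs numbered 41 in the Per3 window, 34 in that of Tprgl, 8 in that of Padi4 and 7 in that of Pdpn. The lower genes were not alike in this: CG pairs numbered 5 and 16 in the 2 windows of Kazn. There were 39 in the Arhgef16 window and 28 to 48 in the 4 windows of Sdf4. G and C made up 54.3% and 64.3% of the Kazn windows, which held no CCAAT box and no GC box.

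Arhgef16 (ENSMUSG00000029032, chromosome 4, 154278486 to 154301676, minus strand) lies 118 kb from Tprgl, with 1 protein-coding gene between them. It was at 0.326, 1.74 and 1.35 FPKM in Mtor CKO replicates 1, 2 and 3 and at 3.12, 6.07 and 4.05 FPKM in WT replicates 1, 2 and 3. All Mtor CKO values were below all WT values, with replicate 1 lowest in each genotype. Means were 1.14 ± 0.728 FPKM in Mtor CKO eggs and 4.41 ± 1.51 FPKM in WT eggs (SD, n = 3 each). This was the lowest share of the WT mean among the 8 genes, 25.8%, and the difference in log2(FPKM + 1) was -1.37 (SE 0.39). Its RefSeq promoter window held 6 GC boxes and 1 E-box, and 77.0% of its bases were G or C.

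Necap2 and Sdf4 varied more among the Mtor CKO libraries than in WT, as did Kazn, Pdpn, Per3 and Arhgef16, while Padi4 and Tprgl did not. For Sdf4 the coefficient of variation was 46.9% in Mtor CKO and 15.7% in WT. In Mtor CKO that of Arhgef16 (64.1%) and of Pdpn (61.2%) was higher than that of Sdf4. Necap2 (ENSMUSG00000028923, chromosome 4, 141066512 to 141078357, minus strand) was at 1.29, 8.59 and 2.51 FPKM in Mtor CKO replicates 1, 2 and 3 and at 10.7, 10.8 and 9.79 FPKM in WT replicates 1, 2 and 3. Its coefficient of variation was 94.6% in Mtor CKO and 5.53% in WT. Mtor CKO replicate 2 came within 1.14-fold of the lowest WT library, while replicate 1 was far below. Means were 4.13 ± 3.91 FPKM in Mtor CKO eggs and 10.5 ± 0.578 FPKM in WT eggs (SD, n = 3 each), with a difference in log2(FPKM + 1) of -1.43 (SE 0.61).

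Of 17 genes of the clathrin adaptor list, to which Necap2 belongs, 1 other was in the table, the endocytic adaptor Eps15l1. Eps15l1 was at 0.417, 2.886 and 0.149 FPKM in Mtor CKO replicates 1, 2 and 3 and at 2.889, 2.889 and 4.04 FPKM in WT replicates 1, 2 and 3. As for Necap2, Mtor CKO replicate 2 lay close to WT and the other two lay far below. Over the rows lower in Mtor CKO, replicate 2 was the highest of the 3 Mtor CKO libraries in 62.2% and replicate 1 the lowest in 63.5%, and the median over all rows was also highest in replicate 2.

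Sdf4 (ENSMUSG00000029076, chromosome 4, 155992872 to 156013610) is the 1 gene of the 8 on the plus strand. The other 7 are on the minus strand, as are 48.9% of the 284 protein-coding genes within 10 Mb of Mtor. It was at 5.80, 16.5 and 12.2 FPKM in Mtor CKO replicates 1, 2 and 3 and at 24.2, 24.1 and 18.1 FPKM in WT replicates 1, 2 and 3. The groups were separate, but the highest Mtor CKO and the lowest WT value differed only 1.096-fold. Means were 11.5 ± 5.40 FPKM in Mtor CKO eggs and 22.1 ± 3.48 FPKM in WT eggs (SD, n = 3 each), and the difference in log2(FPKM + 1) was -0.98 (SE 0.43), or -0.59 without Mtor CKO replicate 1. The other 4 genes of its family of secretory calcium-binding proteins, Rcn1, Rcn2, Rcn3 and Calu, were not in the table.

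RefSeq gives Sdf4 4 promoter windows. The one that lies furthest upstream (chr4:155992593-155992892, plus strand) is shown for its tandem repeat, with a recurring unit of 20 bases in capitals.
Sdf4: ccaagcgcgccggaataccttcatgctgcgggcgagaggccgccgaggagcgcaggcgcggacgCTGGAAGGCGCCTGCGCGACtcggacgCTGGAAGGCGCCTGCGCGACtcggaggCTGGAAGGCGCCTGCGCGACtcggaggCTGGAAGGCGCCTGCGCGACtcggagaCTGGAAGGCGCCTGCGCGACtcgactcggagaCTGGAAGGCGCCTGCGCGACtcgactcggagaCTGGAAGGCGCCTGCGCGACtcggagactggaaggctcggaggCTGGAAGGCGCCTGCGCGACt
The unit CTGGAAGGCGCCTGCGCGAC occurred 8 times, its copies starting 27 to 43 bases apart. It was found in 1 of the 32851 RefSeq windows outside those of Sdf4. This window held none of the 4 motifs, while the window that lies furthest downstream held 2 GC boxes, 1 CCAAT box and 1 E-box.

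Kazn (ENSMUSG00000040606, chromosome 4, 142102390 to 142239401, minus strand) encodes kazrin, which binds the desmosome-associated protein periplakin. It was at 1.38, 2.06 and 1.0001 FPKM in Mtor CKO replicates 1, 2 and 3 and at 3.31, 3.53 and 2.54 FPKM in WT replicates 1, 2 and 3. The groups did not overlap, and in each of them replicate 2 was highest and replicate 3 lowest. Means were 1.48 ± 0.535 FPKM in Mtor CKO eggs and 3.12 ± 0.521 FPKM in WT eggs (SD, n = 3 each), with a difference in log2(FPKM + 1) of -0.75 (SE 0.21). This was the smallest difference on that scale and the one whose direction turned, to 0.0267, when libraries were scaled by their medians as described below. The antisense gene Gm13062 lies within Kazn, and its annotated exons share 0 bases with those of Kazn. Transcripts of Kazn also matched those of Gm37943 over up to 202 bases at 90% identity or more. Of 10 desmosome and cornified envelope genes on a list that included Kazn, no other was in the table. The same held for 7 genes of synaptic vesicles, of which Tprgl was the 1 in the table.

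**Figure D3:**
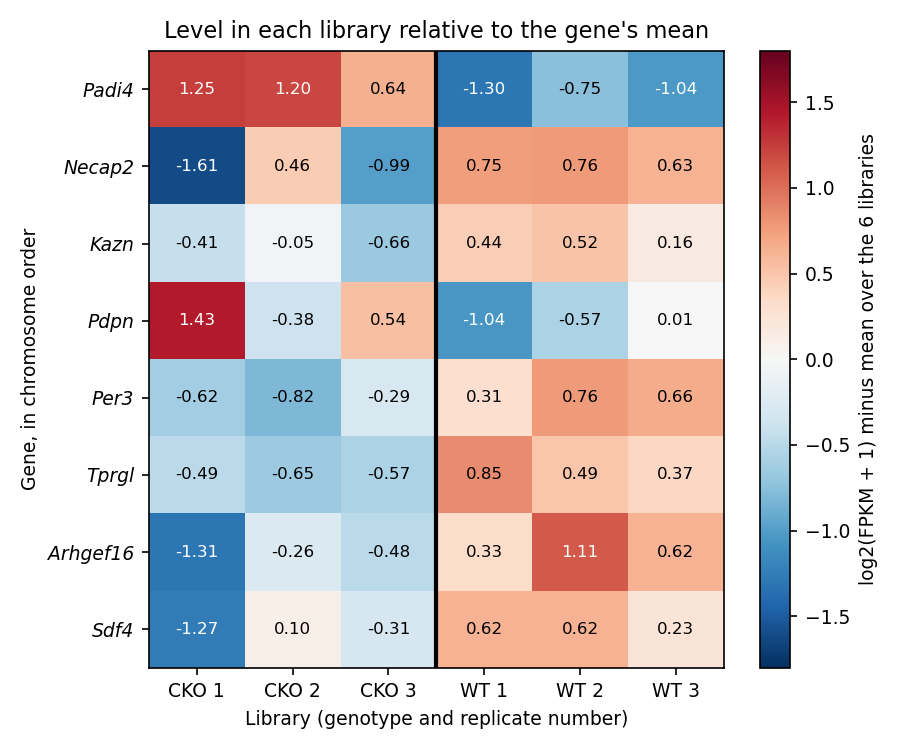
log2(FPKM + 1) of each gene in each library minus the gene's mean over the 6 libraries, with genes in chromosome order from the centromeric side (top) and Mtor CKO libraries left of the WT libraries. Padi4 and Pdpn are high in Mtor CKO replicate 1 (1.25 and 1.43), where Necap2, Arhgef16 and Sdf4 are at their lowest (-1.61, -1.31 and -1.27).

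The order of the libraries within a genotype differed between the genes. Mtor CKO replicate 2 was the highest Mtor CKO library for 4 of the 8 genes (Necap2, Kazn, Arhgef16 and Sdf4) and the lowest for 3 (Pdpn, Per3 and Tprgl). Mtor CKO replicate 1 was the highest for 3 (Padi4, Pdpn and Tprgl) and the lowest for 3 (Necap2, Arhgef16 and Sdf4). Over all rows, replicate 2 was highest in 50.2% and lowest in 26.6%, and replicate 1 highest in 26.0% and lowest in 50.2%.

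By level, FPKM being scaled to transcript length, the order in Mtor CKO eggs was Pdpn, Per3, Sdf4, Padi4, Tprgl, Necap2, Kazn and Arhgef16. In that order only Per3 and Sdf4 were neighbours whose 3 values did not overlap. The order in WT eggs was Per3, Sdf4, Pdpn, Tprgl, Necap2, Arhgef16, Kazn and Padi4. There, Per3 stood apart from Sdf4, Necap2 from Arhgef16 and Kazn from Padi4, and the other neighbours overlapped. Padi4 was thus the lowest in WT and the fourth in Mtor CKO. The longest annotated coding transcript ranged from 1724 bases with 4 exons for Tprgl to 5999 bases with 21 exons for Per3.

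Along chromosome 4, 4 of the genes lie on the centromeric side of Mtor (148448611 to 148557683) and 4 on the telomeric side. Padi4, at 7.67 Mb, is the most distant, followed on its side by Necap2 at 7.37 Mb, Kazn at 6.21 Mb and Pdpn at 5.15 Mb. Per3 at 2.36 Mb, Tprgl at 5.58 Mb, Arhgef16 at 5.72 Mb and Sdf4 at 7.44 Mb follow on the telomeric side. These distances are those of the row intervals, and the annotated Per3 and Tprgl genes begin somewhat further from Mtor than their rows. The 2 genes higher in Mtor CKO, Padi4 and Pdpn, are both centromeric, and the 4 telomeric genes were all lower, where 76.4% of all rows of the table were lower. Of the other rows in the window, the PRAME-like cluster (3 higher and 5 lower) and the zinc finger copies (2 higher and 3 lower) are centromeric, and the remaining 2, both lower, are telomeric. The genes are not a continuous block: 7 protein-coding genes lie between Padi4 and Necap2, 27 between Necap2 and Kazn, 118 between Pdpn and Per3 and 46 between Arhgef16 and Sdf4. Kazn and Pdpn, which have 1 protein-coding gene between them, differed in opposite directions.

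The 8 genes are among 23 rows within 10 Mb of Mtor. Of the rest, 8 lie in the PRAME-like cluster, which begins beyond Pdpn, 5 are zinc finger copies and 2, Prdm16 and Rer1, are neither. On the centromeric side the nearest row outside the bound was Ece1, at 10.5 Mb, which averaged 4.51 ± 1.97 FPKM in Mtor CKO eggs and 11.5 ± 8.40 FPKM in WT eggs (SD, n = 3 each). On the telomeric side 0 rows lay beyond the bound, since the last annotated gene of the chromosome ends 7.80 Mb from Mtor.

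**Figure D4:**
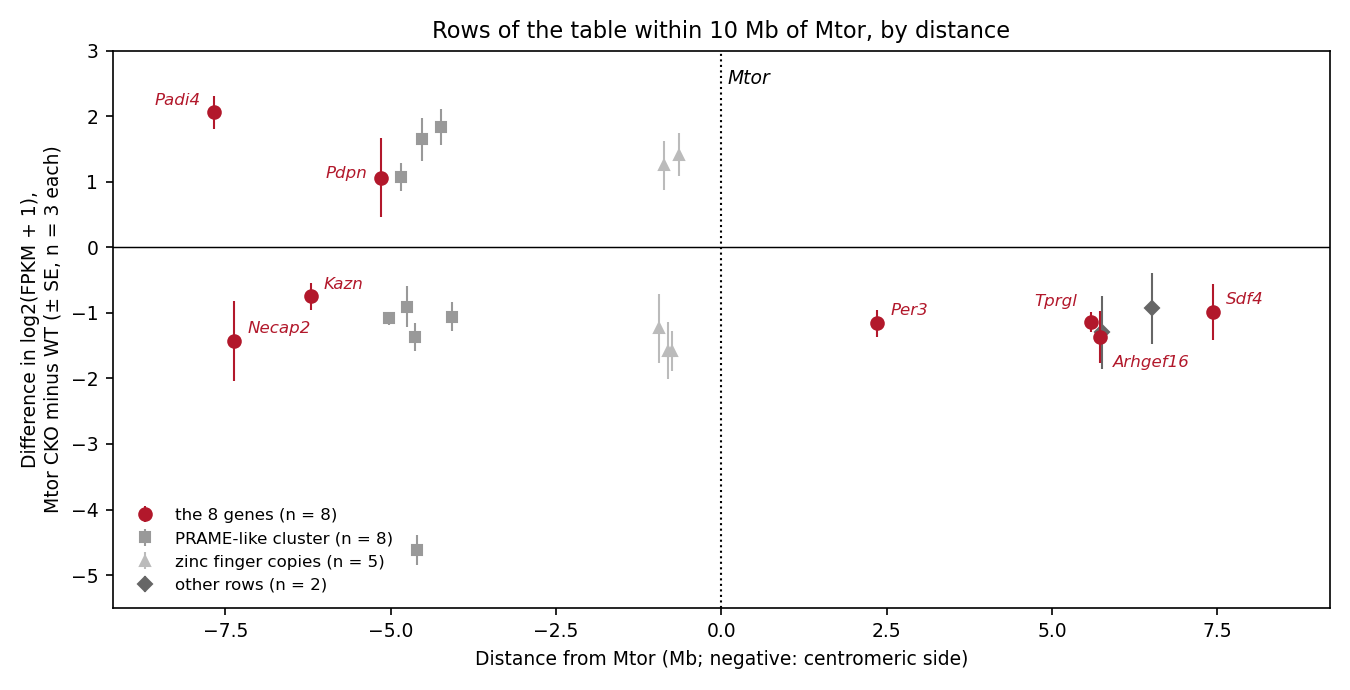
Difference in log2(FPKM + 1), Mtor CKO minus WT (± SE, n = 3 each), against distance from Mtor in Mb for the 23 rows within 10 Mb, by class. The 8 genes (red) run from 2.06 for Padi4 to -1.43 for Necap2, and the 4 on the telomeric side are all below 0.

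Scaling bears on these directions. When each library was scaled by its median over the table, the difference between the genotypes in that median, -0.78 on the log2 scale, was removed, and with it part of the lower level common to the selected rows. Padi4 then stood at 2.84 and Pdpn at 1.84, and Pdpn joined the genes whose groups did not overlap. Necap2 was at -0.65, Arhgef16 at -0.59, Per3 at -0.38, Tprgl at -0.37 and Sdf4 at -0.20, and Kazn was at 0.0267, its direction turned. The count of genes whose groups did not overlap was then 3, made up of Padi4, Pdpn and Arhgef16. The share of all rows without overlap was not computed under this scaling, so the count cannot be set against the table. Over the table this scaling made 31.4% of rows higher and 68.6% lower.

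The rows whose profile over the 6 libraries lay nearest to that of each gene were sought by the root-mean-square difference of centred log2(FPKM + 1) values, among 429 rows with established symbols. Nearest to Padi4 was Cgrrf1 (0.27), which averaged 9.71 ± 1.99 FPKM in Mtor CKO eggs and 2.34 ± 0.661 FPKM in WT eggs (SD, n = 3 each). For Pdpn it was Repin1 (0.11), at 25.2, 7.46 and 12.9 FPKM in Mtor CKO eggs and at 3.91, 7.13 and 9.67 FPKM in WT. The rows nearest to the lower genes were Nsd1 for Necap2 (0.14), Tom1l1 for Kazn (0.091), Pramef8 for Per3 (0.13), Sgce for Tprgl (0.072), Mier3 for Arhgef16 (0.10) and Tmem39a for Sdf4 (0.098). Of these 8 nearest rows 1, Pramef8, is on chromosome 4. All 3 Mtor CKO libraries list Sgce at 0, so its nearness to Tprgl rests on the added 1. Over the 429 rows the median distance was 1.59 for Padi4 and 1.31 for Pdpn. For the lower genes it ran from 0.46 for Arhgef16 to 0.67 for Necap2. All rows were picked for the same contrast and 76.4% were lower, so a near row for a lower gene is partly fixed by that choice.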

How the data were processed

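The authors' deposited table gives an FPKM for each library and each group. The log2 fold of the deposited table equals the log2 of its group FPKM, Mtor CKO over WT, for the 8 genes, although its heading names WT first. Its rows had an absolute log2 fold of at least 1.0006 and, in the authors' deposited table, a p-value of at most 0.0099. Per the submitters' processing notes, TopHat2 2.0.8b, Cufflinks 2.1.1, Cuffdiff and build mm10 were used. Per the labels' protocols, cDNA was amplified by 17 PCR cycles, so fragments are not independent molecules.

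Means, SDs and differences in log2(FPKM + 1) with their standard errors were computed from the libraries with pandas 2.3.3 in Python 3.11.15. A separate copy of the difference formula was checked on simulated data, for true differences of 0 or above. The standard errors were not checked in this way. No hypothesis test was run, because the rows had been picked for this contrast. Starts in the table count from 0 and are given here from 1. Genes and Mtor were placed with GENCODE M21 of the same assembly. RefSeq promoter windows (GRCm38.p6) were matched by symbol for 7 of the 8 genes, all but Necap2. Transcript matches used blastn 2.17.0. The genes and lists were chosen with earlier results of these data known. The genes named beside the 8 followed a rule: members of the fixed lists, rows next to the 10 Mb bound, and the row nearest in profile. Prdm16 and Rer1 were named after their values were seen.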

Additional observations from a re-analysis of the deposited data

How the results depend on the processing

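The count of 2 higher genes was kept under every alternative that was run except scaling by library medians, which made it 3, and the difference per gene kept its direction except that of Kazn, which turned to 0.0267 under that scaling. Under the same scaling the other genes moved by more than the spread of their libraries, to 2.84 for Padi4, 1.84 for Pdpn, -0.65 for Necap2, -0.38 for Per3, -0.37 for Tprgl, -0.59 for Arhgef16 and -0.20 for Sdf4, and the count of genes whose groups did not overlap was 3. With a pseudocount of 0.1 Padi4 stood at 3.03, Kazn at -1.07 and Arhgef16 at -2.06. As the log2 ratio of library means, without a pseudocount, Padi4 was at 3.15, Kazn at -1.08 and Arhgef16 at -1.96. As the log2 ratio of the authors' group FPKM, Padi4 was at 3.34, Kazn at -1.11, Tprgl at -1.35 and Arhgef16 at -2.15. The added 1 compresses low values by construction. Leaving out 1 library at a time, the count of genes whose groups did not overlap was 7 to 8, and it was 8 without Mtor CKO replicate 2 or without WT replicate 3. Groups with a library left out separate more easily by construction. The share of all rows without overlap was not computed with a library left out or under the median scaling. These counts therefore cannot be set against the table. With 1 library left out, the differences ranged from 1.92 to 2.25 for Padi4, 0.62 to 1.52 for Pdpn, -2.01 to -0.98 for Necap2 and -1.28 to -0.59 for Sdf4. A window of 5 Mb around Mtor held 13 rows of the table, with Per3 the only one of the 8 genes among them.

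With the replicate block, the mean of the differences between same-numbered libraries equals the difference of the means, so Padi4 stayed at 2.06 and Arhgef16 at -1.37, and the SE was 0.26 for Padi4 and 0.15 for Arhgef16. Deviations from the group mean correlated at 0.096, 0.19 and 0.065 across the 516 rows for numbers 1, 2 and 3, and the labels tie the numbers to no shared mouse or day, so the libraries were not treated as pairs. The depth of the libraries is unknown, which leaves the counting error of the low values of Padi4 in WT and of Kazn and Arhgef16 without an estimate.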

Other observations

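A pair of rows within 10 Mb of Mtor belong neither to the PRAME-like or zinc finger genes nor to the 8 genes described, and both lie on the telomeric side between Arhgef16 and Sdf4. Rer1, which returns membrane proteins to the endoplasmic reticulum, was at 4.50, 14.1 and 4.63 FPKM in Mtor CKO replicates 1, 2 and 3 and at 10.01, 13.8 and 18.9 FPKM in WT replicates 1, 2 and 3. Its groups overlapped, and Mtor CKO replicate 2 was again the highest Mtor CKO library. The same held for Necap2, Kazn, Arhgef16 and Sdf4, and for 62.2% of all rows lower in Mtor CKO. Prdm16, a transcriptional regulator known from brown fat, was at 0.128, 0.171 and 0.0512 FPKM in Mtor CKO and at 1.01, 4.88 and 0.750 FPKM in WT. Its groups did not overlap, and WT replicate 2 stood far above the other two WT libraries.

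Of 16 cumulus and granulosa markers, Mro and Vcan were in the table, and their summed level ranged from 1.68 to 3.15 FPKM in Mtor CKO and from 4.50 to 9.86 FPKM in WT. Their part in the lower values of the 6 genes was not tested. All 3 Mtor CKO libraries, and WT replicate 3, list Vcan at 0. Of 8 other blood and immune markers, 0 were in the table.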
